A study of Mus musculus with 4 samples.

Results

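Marker genes of cells other than neurons were examined in RNA from sorted interneurons of the embryonic mouse brain. The 10 genes were chosen by name, with earlier results of these data known. They mark endothelial cells (*Cldn5*, *Pecam1*, *Kdr* and *Flt1*), mural cells or fibroblasts (*Pdgfrb*, *Col1a1* and *Col3a1*) and microglia (*C1qb*, *Csf1r* and *Cx3cr1*). Each was found once among the 56883 genes of the deposited table. All 10 had lower normalized counts in both *Dnmt1* KO libraries than in both control libraries, a pattern found in 29.0% of all genes tested. Of the 10, 8 passed the test over all genes, where 8.99% of all genes tested were called lower. The 8 were the 4 endothelial genes, the 3 mural or fibroblast genes and *Csf1r*, with log2 fold changes from -1.42 to -0.98. *C1qb* and *Cx3cr1* did not pass.

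Control cells came from *Sst-Cre/tdTomato* embryos and KO cells from *Sst-Cre/tdTomato/Dnmt1 loxP2* embryos, all at embryonic day E14.5, so that both genotypes carried the *Sst*-driven Cre and the red fluorescent reporter tdTomato, and the KO embryos alone carried *Dnmt1* with loxP-flanked exons. Cre was inserted at the *Sst* locus, which limits recombination to cells that have switched on somatostatin. Cells of the basal telencephalon were dissociated with trypsin and sorted for tdTomato, and each genotype gave 2 libraries from samples handled apart, each a pool of cells from several embryos. The gate on tdTomato was the step that selected these cells, and no counter-stain for vessel, connective tissue or immune cells is described. RNA is described as isolated from 50000 cells pooled per genotype, and whether the 2 libraries of a genotype shared embryos is not stated. The p-values cover the spread between libraries and not that between embryos.

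Reads recovered from the normalized counts and summed over genes came to 6970247 to 8376711 per library, with 5.87% to 7.03% on mitochondrial genes. Libraries of 1 genotype differed by more than counting noise. Normalized counts of *Dnmt1*, the targeted gene, were 2238 and 2341 in control and 2164 and 2210 in KO libraries (log2 fold change -0.066, limma adjusted p = 0.461). A count over the whole gene includes exons outside the deleted part, and the bearing of this on the values was not tested. For E14.5 embryos the paper reports reduced DNMT1 immunofluorescence in tdTomato-positive KO cells, measured relative to all cortical nuclei. It also reports fewer *Dnmt1* transcripts in sorted KO cells, and these came from the cortex. The label of the sorted cells was checked against 10 genes of GABAergic interneurons, among them *Sst*, *Lhx6* and *Gad1*, all of which were abundant. *Sst*, the peptide that defines the sort, was counted at 5580 and 5963 in control and at 8303 and 7825 in KO libraries.

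Blood vessels enter the telencephalon before and during the days of interneuron migration. Endothelial cells line them and form the blood-brain barrier, pericytes and smooth muscle cells (together called mural cells) wrap them, and fibroblasts of the meninges and the vessel wall secrete collagen. Microglia are the macrophages of the brain tissue and arise in the yolk sac. None of these cells derives from the lineage that makes interneurons. Several of the genes act in pairs of ligand and receptor: VEGF ligands bind KDR and FLT1 on endothelial cells, PDGF-B from endothelial cells binds PDGFRB on pericytes, CSF1 and IL34 bind CSF1R on microglia, and CX3CL1 from neurons binds CX3CR1 on microglia.

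Levels of different genes were set side by side per kilobase (kb) of the canonical GENCODE transcript. In control libraries *Cldn5* was highest, with 42.1 ± 6.56 (SD, n = 2) normalized counts per kb. *Kdr* followed with 21.7 ± 0.027, *Pecam1* with 20.6 ± 1.55 and *Col3a1* with 19.2 ± 0.641 normalized counts per kb (SD, n = 2 each), and neighbours in this order differed by less than the larger of their SDs. *Pdgfrb* had 15.3 ± 1.80, and below it *Flt1* with 9.44 ± 2.15 and *Col1a1* with 8.02 ± 0.391 normalized counts per kb (SD, n = 2 each) did not differ beyond their spread. The 3 microglia genes came last, at 6.20 for *C1qb*, 6.20 for *Csf1r* and 6.05 for *Cx3cr1*, with no difference between neighbours beyond the spread. In counts not divided by length, the genes lay between the percentiles 4.52 (*C1qb*) and 40.4 (*Kdr*) of the mean over all genes tested, and single values rested on 7 to 144 reads.

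**Figure D1:**
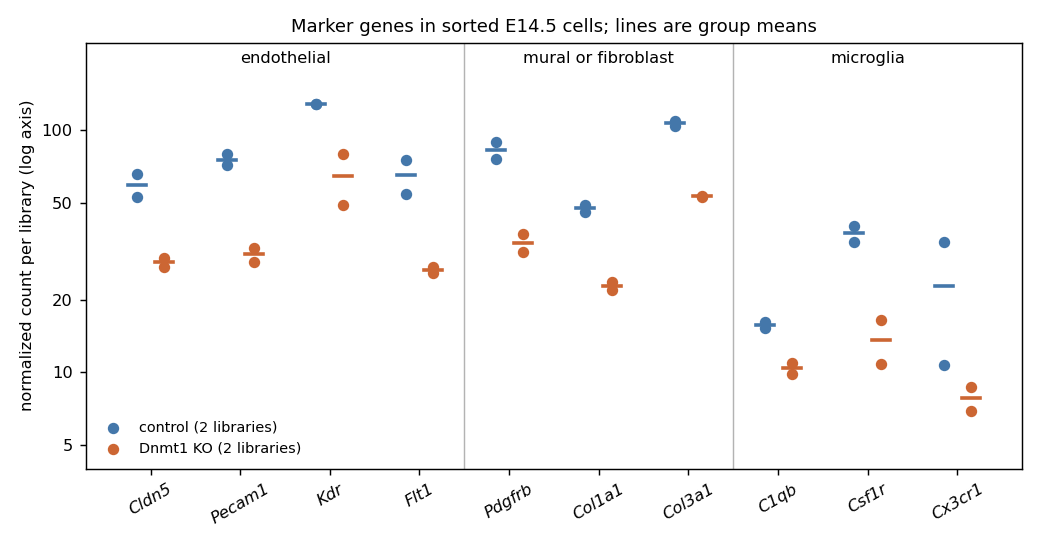
Normalized count of each of the 10 marker genes in each library (points, log axis) with the mean of each genotype (lines). For every gene, both *Dnmt1* KO libraries (orange) lie below both control libraries (blue), and for *Cx3cr1* the 2 control libraries lie far apart, at 10.7 and 34.7.

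Genotypes were compared with limma on log2(normalized count + 1) over the 14323 genes whose normalized count averaged 10 or more, with Benjamini-Hochberg adjustment at 0.05. All 10 marker genes passed the filter and were tested. Of all genes tested, 17.3% were called in either direction, 8.99% lower in KO cells and 8.30% higher. Of the 10 marker genes, 8 were called lower and 0 higher. The 10 were chosen with earlier results of these data known, so these shares are no independent check. The median log2 fold change was -1.13 over the 10 genes and -0.0033 over all genes tested. All 10 were weakly expressed, and of tested genes whose mean lay from 10 to 100, a range set after the values of the 10 were seen, 7.23% were called lower. The genotypes did not overlap, in either direction, for 57.4% of the genes tested. Both KO libraries lay below both control libraries for 29.0% of them and for 10 of the 10 marker genes. A log2 fold change of -1 or less was found for 4.04% of the genes tested. DESeq2 on the recovered reads called 5 of the 10 lower (*Pecam1*, *Kdr*, *Flt1*, *Pdgfrb* and *Col3a1*) and gave no adjusted p for *C1qb* and *Cx3cr1*. It called 4.80% of all genes tested lower, with genes that lack an adjusted p counted as not called. With edgeR the 8 of limma's count were called, against 9.09%. Without its variance trend limma called 0 genes (9 of the 10 lower at an unadjusted p below 0.05, against 12.8% of all genes tested). In bulk RNA, fewer cells of a type and less RNA per cell cannot be told apart.

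*Cldn5* (ENSMUSG00000041378) encodes claudin-5, the tight junction protein that seals brain endothelium, in a single exon on chromosome 16 from 18595597 to 18597012 (GRCm39). Its normalized counts were 66.2 and 53.1 in control and 29.6 and 27.3 in KO libraries. The KO libraries were close to each other and well below both controls, and *Cldn5* fell to 47.7% of the control mean (log2 fold change -1.03, standard error (SE) 0.27, limma adjusted p = 0.0164).

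*Pecam1* (ENSMUSG00000020717) encodes CD31, an adhesion molecule at contacts between endothelial cells, and lies on chromosome 11 from 106543689 to 106641454. It was counted at 71.6 and 79.6 in control and at 28.6 and 32.8 in KO libraries. The gap between genotypes was several times the gap within either of them, and the log2 fold change was -1.27 (SE 0.25, limma adjusted p = 0.00255).

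The VEGF receptor genes *Kdr* (ENSMUSG00000062960) and *Flt1* (ENSMUSG00000029648) lie on chromosome 5, from 76093487 to 76139884 and from 147498414 to 147662826. KDR is the main signalling receptor for VEGF-A, and FLT1 binds the same ligand more tightly and signals less, which limits what reaches KDR. *Kdr* had the highest count of the 10 genes, 129 in each control library, and 49.3 and 79.8 in the KO libraries. The KO libraries thus differed more from each other than for any other endothelial member, and the log2 fold change of -1.03 (SE 0.22, limma adjusted p = 0.00459) ran from -1.37 to -0.68 with each library left out in turn. *Flt1* was counted at 54.6 and 75.5 in control and at 25.6 and 27.3 in KO libraries. Here the spread lay between the control libraries, and the log2 fold change was -1.25 (SE 0.28, limma adjusted p = 0.00605).

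Summed over the 4 endothelial genes, the normalized count was 321 and 337 in control and 133 and 167 in KO libraries, and the KO mean was 45.6% of the control mean. With each library left out in turn, *Pecam1* and *Kdr* stayed below 0.05. *Cldn5* did not without control replicate 1 (limma adjusted p = 0.151) or control replicate 2 (adjusted p = 0.0511), and *Flt1* did not without control replicate 2 (adjusted p = 0.110).

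A list of 28 further endothelial genes was read in the same way. Of these, 20 were tested, and 12 were called lower and 0 higher, against 8.99% and 8.30% of all genes tested. DESeq2 called 5 lower, against 4.80%. The median log2 fold change in limma was -1.22. The 4 called genes with the largest changes were *Eng*, a TGF-beta coreceptor, *Cd93*, a surface glycoprotein, *Cdh5*, the cadherin of endothelial junctions, and *Fli1*, an ETS transcription factor of the endothelial and blood lineages. *Cdh5* was counted at 121 in both control libraries and at 42.4 and 30.6 in KO libraries, a log2 fold change of -1.72 (SE 0.23, limma adjusted p = 9.3e-05). The log2 fold changes were -1.87 for *Eng*, -1.74 for *Cd93* and -1.59 for *Fli1*, with limma adjusted p of 0.00557, 0.000405 and 0.0213. Leaving out 1 library ended the call of *Eng* without control replicate 1 (adjusted p = 0.0832) and that of *Fli1* without control replicate 1 (adjusted p = 0.134), control replicate 2 (adjusted p = 0.0759) or *Dnmt1* KO replicate 1 (adjusted p = 0.0507).

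Of the 20, 18 had negative log2 fold changes. The exceptions, named here after their values were seen, were *Ets1*, with counts of 95.8 and 55.1 in control and 99.6 and 126 in KO libraries, and *Abcg2*, with 41.2 and 34.7 in control and 35.5 and 45.9 in KO libraries. *Ets1* is an ETS transcription factor and *Abcg2* an efflux transporter. Neither is made by endothelial cells alone, and whether the 12 genes called lower are was not examined. *Ets1* did not pass (limma adjusted p = 0.0927), although it did without control replicate 1 (log2 fold change 1.01, adjusted p = 0.0201) or *Dnmt1* KO replicate 1 (log2 fold change 0.78, adjusted p = 0.0164) and with the replicate number as a block (log2 fold change 0.62, adjusted p = 0.0174). The sign of *Abcg2* changed with 3 of the alternatives tried.

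*Pdgfrb* (ENSMUSG00000024620), on chromosome 18, encodes the receptor by which pericytes are recruited to vessels, and it is also expressed by fibroblasts. Its normalized counts were 76.1 and 89.8 in control and 31.6 and 37.1 in KO libraries. The KO mean was 41.4% of the control mean, and the log2 fold change was -1.25 (SE 0.24, limma adjusted p = 0.00235).

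*Col1a1* (ENSMUSG00000001506, chromosome 11 from 94827050 to 94843868) and *Col3a1* (ENSMUSG00000026043, chromosome 1 from 45350698 to 45395840) encode chains of the fibrillar collagens I and III, which fibroblasts secrete. *Col1a1* was counted at 49.2 and 45.9 in control and at 23.7 and 21.9 in KO libraries. *Col3a1* was counted at 109 and 104 in control and at 53.3 and 53.5 in KO libraries. In both genes libraries of 1 genotype lay close together and the genotypes were far apart, with a log2 fold change of -1.03 for *Col1a1* (SE 0.30, limma adjusted p = 0.0263) and of -0.98 for *Col3a1* (SE 0.20, limma adjusted p = 0.00303).

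The 3 genes summed to 234 and 240 normalized counts in control and to 109 and 113 in KO libraries, or 46.6% of the control mean. *Pdgfrb* and *Col3a1* stayed below 0.05 with each library left out. *Col1a1* did not without control replicate 1 (limma adjusted p = 0.141), control replicate 2 (adjusted p = 0.110) or *Dnmt1* KO replicate 2 (adjusted p = 0.0574).

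Among 15 further genes of mural cells, 8 were tested and 3 were called lower, against 8.99% of all genes tested. DESeq2 called 2 lower, against 4.80%. In limma 0 were called higher, and the median log2 fold change was -0.82. The 3 called genes are known from pericytes and vascular smooth muscle: *Notch3*, a Notch receptor, *Rgs5*, a regulator of G protein signalling, and *Abcc9*, a subunit of a potassium channel. *Notch3*, which neural progenitors can also express, was counted at 257 and 215 in control and at 112 and 117 in KO libraries (log2 fold change -1.03, SE 0.14, limma adjusted p = 0.00016). For *Rgs5* the log2 fold change was -1.10 (limma adjusted p = 0.00346) and for *Abcc9* it was -0.83, with an adjusted p of 0.0499 that lay at the threshold. *Rgs5* passed in each fit with 1 library left out except without control replicate 2 (adjusted p = 0.0665). *Abcc9* passed only without *Dnmt1* KO replicate 1 of these fits, and without control replicate 1, control replicate 2 and *Dnmt1* KO replicate 2 its adjusted p was 0.103, 0.275 and 0.22. The contractile markers *Acta2*, *Tagln* and *Des* were below the filter, *Des* with 0 reads in every library and *Acta2* with at most 1.79 normalized counts.

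Among 19 further fibroblast genes, 8 were tested and 2 called lower, against 8.99% of all genes tested. DESeq2 called 0 lower, against 4.80%. In limma 0 were called higher, and the median log2 fold change was -0.87. *Col1a2*, the partner chain of *Col1a1* in collagen I, was counted at 35.8 and 51.0 in control and at 11.8 and 22.9 in KO libraries (log2 fold change -1.32, limma adjusted p = 0.0253). *Col5a1*, a chain of collagen V, was counted at 75.2 and 80.7 in control and at 45.4 and 37.1 in KO libraries (log2 fold change -0.91, limma adjusted p = 0.0145). Both calls were lost without either control library, *Col1a2* also without *Dnmt1* KO replicate 1 and *Col5a1* also without *Dnmt1* KO replicate 2, where the adjusted p was 0.0554 to 0.217 for *Col1a2* and 0.0521 to 0.113 for *Col5a1*. *Dcn*, *Lum* and *Dpt*, which mark mature fibroblasts, were below the filter, and *Dpt* had 0 reads in every library.

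*Csf1r* (ENSMUSG00000024621), on chromosome 18, encodes the receptor on which the survival of microglia depends. Its normalized counts were 40.3 and 34.7 in control and 10.9 and 16.4 in KO libraries, from 45 and 34 reads and from 11 and 15 reads. Its log2 fold change was -1.42 (SE 0.37, limma adjusted p = 0.0158), the most negative of the 10 genes in limma, whereas in edgeR and DESeq2 that of *Cx3cr1* was more negative (-1.51 against -1.46 in edgeR and -1.53 against -1.47 in DESeq2). The call was lost without control replicate 1 (adjusted p = 0.117) or control replicate 2 (adjusted p = 0.0685). *Csf1r* lies 11580 bases from *Pdgfrb* on the same strand and overlaps *Hmgxb3* on the other strand. The libraries were made with a stranded kit, while the setting used to count by strand is not given in the sources used here, and *Hmgxb3* itself was counted at 418 and 392 in control and at 413 and 464 in KO libraries, with no gap between the genotypes.

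*C1qb* (ENSMUSG00000036905, chromosome 4 from 136606009 to 136613511) encodes a chain of C1q, which starts the classical complement cascade. It was counted at 16.1 and 15.3 in control and at 9.86 and 10.9 in KO libraries. The genotypes did not overlap, but each value rested on 10 to 18 reads, and the log2 fold change of -0.55 (SE 0.47, limma adjusted p = 0.472) was close to its SE. In exact 95% Poisson intervals, which cover counting error only, 18 reads allow 10.7 to 28.4 and 10 reads allow 4.80 to 18.4, and these intervals of single libraries overlap.

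*Cx3cr1* (ENSMUSG00000052336, chromosome 9 from 119877749 to 119898945) encodes the fractalkine receptor. It was counted at 10.7 and 34.7 in control and at 6.90 and 8.74 in KO libraries. The control libraries differed from each other by more than counting error, with 12 reads (exact 95% Poisson interval 6.20 to 21.0) in one and 34 reads (23.5 to 47.5) in the other. The log2 fold change of -1.22 (SE 0.56, limma adjusted p = 0.154) rested on that difference, being -2.02 without control replicate 1 (adjusted p = 0.036) and -0.42 without control replicate 2 (adjusted p = 0.758).

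The 3 microglia genes summed to 67.1 and 84.7 normalized counts in control and to 27.6 and 36.1 in KO libraries, or 41.9% of the control mean. Of the 10 marker genes, *Csf1r* and *C1qb* were farthest apart in log2 fold change, by 0.87 with a SE of 0.60, and no pair of the 10 differed by more than 1.45 SEs of the difference. Whether the cell types differ from each other in the size of the change was therefore not resolved.

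Among 29 further genes of microglia and other macrophages, 9 were tested and 4 were called lower, against 8.99% of all genes tested. DESeq2 called 1 lower, against 4.80%. In limma 0 were called higher, and the median log2 fold change was -1.46. *Mrc1* (CD206) and *F13a1* mark macrophages at the borders of the brain, along its vessels and meninges, more than microglia. *Mrc1* was counted at 25.95 and 27.6 in control and at 3.95 and 1.09 in KO libraries, the latter from 4 reads and 1 read (log2 fold change -3.11, SE 0.61, limma adjusted p = 0.00236). *F13a1* was counted at 18.8 and 17.4 in control and at 0.986 and 4.37 in KO libraries (log2 fold change -2.54, SE 0.67, limma adjusted p = 0.0158). Folds from so few reads depend on the pseudocount of 1. *C1qc*, which encodes another chain of C1q, was counted at 26.8 and 17.4 in control and at 5.92 and 5.46 in KO libraries (log2 fold change -1.76, SE 0.51, limma adjusted p = 0.0256). Without control replicate 1 or 2 the adjusted p was 0.0881 and 0.0752 for *F13a1* and 0.186 and 0.0539 for *C1qc*.

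*Sall1*, a transcription factor of microglial identity that neural progenitors express as well, stood apart by its level, at 358 and 391 in control and 200.2 and 211 in KO libraries (log2 fold change -0.86, limma adjusted p = 7.96e-05). These counts were about an order of magnitude above those of *Csf1r*. The defining microglia genes *P2ry12*, *Tmem119*, *Trem2*, *Aif1* and *Siglech* were below the filter, with at most 7.16 normalized counts in any library.

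**Figure D2:**
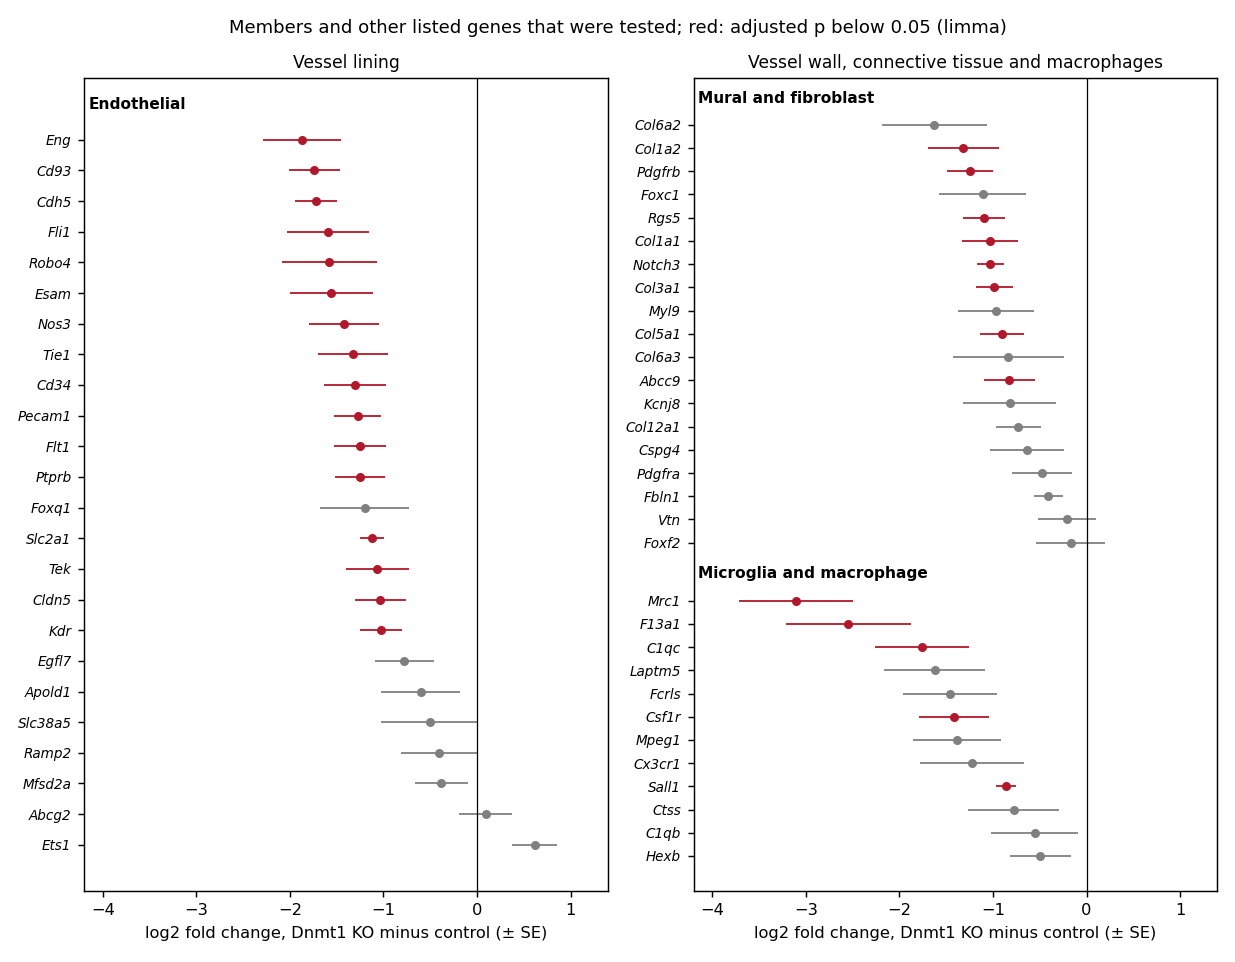
Log2 fold change (*Dnmt1* KO minus control, points) with its SE (bars) for the marker genes and the tested genes of the further endothelial, mural, fibroblast and macrophage lists, in red where limma adjusted p was below 0.05. Of the genes shown, *Ets1* and *Abcg2* alone lie above 0, and the 2 most negative values are those of *Mrc1* and *F13a1*.

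Of the 91 further genes in the 4 lists, 46 were below the filter, and 2 of them had 0 reads in every library. In 56 of the 91 both KO libraries lay below both control libraries, and in 5 both lay above, while each of these patterns was found in 20.7% of the 28067 genes with a read in any library. At an unadjusted p below 0.05, limma found 31 of the 45 tested genes lower and 1 higher, against 15.4% lower and 14.8% higher of all genes tested.

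ETS factors act in both endothelial cells (*Fli1*, *Erg* and *Ets1*) and macrophages (*Spi1*, which encodes PU.1), and promoter windows of the marker genes were searched for letters of this kind of site. RefSeq windows of 250 bases before to 50 after the start (GRCm38.p6) were at hand for 6 of the 10 genes. The 7 letters AGGAAGT, searched on both strands, were found in the windows of 2 genes, *C1qb* and *Flt1*, and not in those of *Cldn5*, *Kdr*, *Col3a1* and *Cx3cr1*. Over all 32851 windows of this length, 9.35% held them. Both matches are printed 5′ to 3′ along the gene, with the motif or its reverse complement in capitals, since they are the windows in which a letter match was found.
*C1qb* chr4:136886235-136886264, minus strand: caggacctgaaACTTCCTgagggcagcagg
*Flt1* chr5:147726046-147726075, minus strand: ggtgccggggtAGGAAGTgggctggggaaa
Each match begins 53 bases before the gene's start. *Fli1* was counted at 29.5 and 24.5 in control and at 6.90 and 9.83 in KO libraries, and *Ets1* at 95.8 and 55.1 in control and at 99.6 and 126 in KO libraries, whereas *Erg* and *Spi1* were below the filter, with at most 11.6 and 8.05 normalized counts. A letter match is a description and binding was not measured.

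A list of 14 genes held ligands and coreceptors of these receptors and, in addition, the receptor gene *Flt4*. Of the 14, 10 were tested, and these had no common direction. Of the 10, 1 was called lower and 1 higher, against 8.99% and 8.30% of all genes tested. Their log2 fold changes ran from -1.002 to 0.64 with a median of 0.01, and 5 were negative. All 4 genes below the filter had a lower mean in KO than in control libraries. *Nrp1*, a coreceptor for VEGF and semaphorins that endothelial cells and neurons share, fell from 331 and 327 to 259 and 241 (log2 fold change -0.39, SE 0.11, limma adjusted p = 0.0207). *Nrp2*, which guides migrating interneurons as a semaphorin receptor, rose from 2475 and 2341 to 2732 and 2756 (log2 fold change 0.19, SE 0.053, limma adjusted p = 0.0222). Both calls were lost without control replicate 2 (adjusted p = 0.0777 and 0.135) and without *Dnmt1* KO replicate 2 (adjusted p = 0.1 and 0.0935), that of *Nrp1* also without control replicate 1 (adjusted p = 0.0894) and that of *Nrp2* also without *Dnmt1* KO replicate 1 (adjusted p = 0.0664).

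Among the VEGF ligands, *Vegfa* was counted at 289 and 283 in control and at 409 and 295 in KO libraries (log2 fold change 0.28, limma adjusted p = 0.173), and it passed without *Dnmt1* KO replicate 2 (log2 fold change 0.52, adjusted p = 0.00388). The log2 fold changes were -0.11 for *Vegfb*, 0.64 for *Vegfc* and 0.64 for *Pgf*, with limma adjusted p of 0.641, 0.285 and 0.323. *Flt4*, the receptor for VEGF-C, had 77.9 and 51.0 normalized counts in control and 40.4 and 33.9 in KO libraries (log2 fold change -0.75, limma adjusted p = 0.073), and it passed without *Dnmt1* KO replicate 1 (adjusted p = 0.0435) and with the replicate number as a block (adjusted p = 0.036).

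*Pdgfa*, whose product binds the related receptor PDGFRA, had a log2 fold change of 0.13 (limma adjusted p = 0.777). *Pdgfb*, the endothelial ligand of PDGFRB, was below the filter, at 10.7 and 17.4 in control and 4.93 and 4.37 in KO libraries. *Csf1* was counted at 25.1 and 34.7 in control and at 10.9 and 18.6 in KO libraries (log2 fold change -1.002, limma adjusted p = 0.105), and it passed without *Dnmt1* KO replicate 2 (log2 fold change -1.36, adjusted p = 0.0411). *Cx3cl1*, the neuronal ligand of CX3CR1, was counted at 83.2 and 106 in control and at 75.0 and 88.5 in KO libraries (log2 fold change -0.20, limma adjusted p = 0.544). *Il34*, *Vegfd* and *Pdgfd* had at most 3.06 normalized counts in any library.

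**Figure D3:**
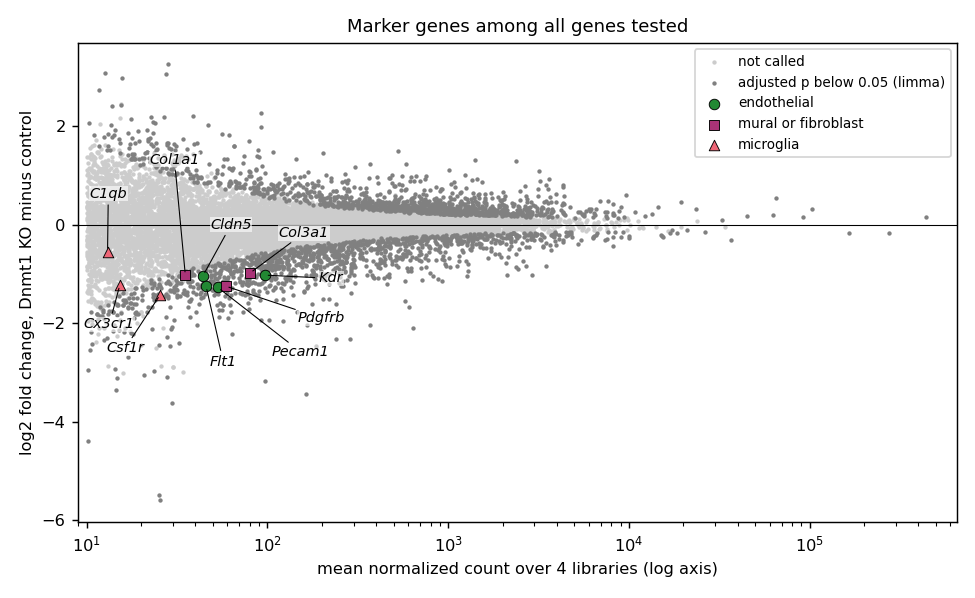
Log2 fold change (*Dnmt1* KO minus control) against the mean normalized count (log axis) for the 14323 genes tested, in dark grey where limma adjusted p was below 0.05. The 10 marker genes (coloured) have mean counts from 13.1 to 96.6 and all lie below 0.

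Lists of markers of other cell types were read in the same way, and which cells their RNA came from was not tested. Of all genes tested, 8.99% were called lower and 8.30% higher. All 8 tested genes of a list of 12 erythroid genes were called lower, and the summed normalized count of the list was 2612 and 2434 in control and 588 and 594 in KO libraries, or 23.4% of the control mean. The log2 fold changes were -3.44 for *Hbb-y* and -3.16 for *Hba-x*, both embryonic globins, -2.47 for *Alas2*, which starts haem synthesis, and -2.10 for *Slc4a1*, the anion exchanger of red cells. *Slc4a1* lost its call without control replicate 1 (limma adjusted p = 0.0597), control replicate 2 (adjusted p = 0.205) or *Dnmt1* KO replicate 2 (log2 fold change -1.16, adjusted p = 0.122) and with no filter (adjusted p = 0.0544). *Gata1*, the transcription factor that defines the erythroid lineage, had 0 reads in every library. Of 10 radial glia genes, which mark neural progenitors, 8 were called lower and 1, *Sox2*, higher. *Sox2* was counted at 1085 and 1055 in control and at 1429 and 1390 in KO libraries (log2 fold change 0.40, limma adjusted p = 0.00048). The 10 genes summed to 14286 and 14397 in control and to 9036 and 9250 in KO libraries, or 63.8%. Of those called, the largest log2 fold changes were -1.03 for *Nes*, -1.03 for *Vim*, -0.84 for *Hes5* and -0.80 for *Slc1a3*. Of 8 genes of the excitatory lineage 7 were called lower and 0 higher, with sums of 2972 and 3029 against 1612 and 1456, or 51.1%, and log2 fold changes of -1.40 for *Neurog2*, -1.25 for *Slc17a6*, -1.23 for *Emx1* and -1.19 for *Eomes*. Of 4 tested oligodendrocyte lineage genes none was called by limma, with 1 at an unadjusted p below 0.05, where 30.2% of all genes tested lay, and 0 called by edgeR or DESeq2, and all 4 log2 fold changes were negative, *Cspg4* and *Pdgfra* among them standing in the mural or fibroblast list as well. The log2 fold change was -0.53 for *Olig2* and -0.47 for *Pdgfra*, with limma adjusted p of 0.161 and 0.354.

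The 10 interneuron genes were all called higher, against 8.30% of all genes tested. Their sum was 21514 and 21528 in control and 32498 and 32669 in KO libraries, or 151% of the control mean. The log2 fold changes ran from 0.34 to 1.08, with 1.08 for *Erbb4*, 0.73 for *Lhx6*, 0.64 for *Slc32a1*, 0.63 for *Gad1* and 0.48 for *Sst*. The 10 vascular, fibroblast and microglia genes together summed to a mean of 642 normalized counts in control and 293 in KO libraries, or 45.6% of the control mean. The part of the cell mixture in the differences between genotypes was not tested.

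**Figure D4:**
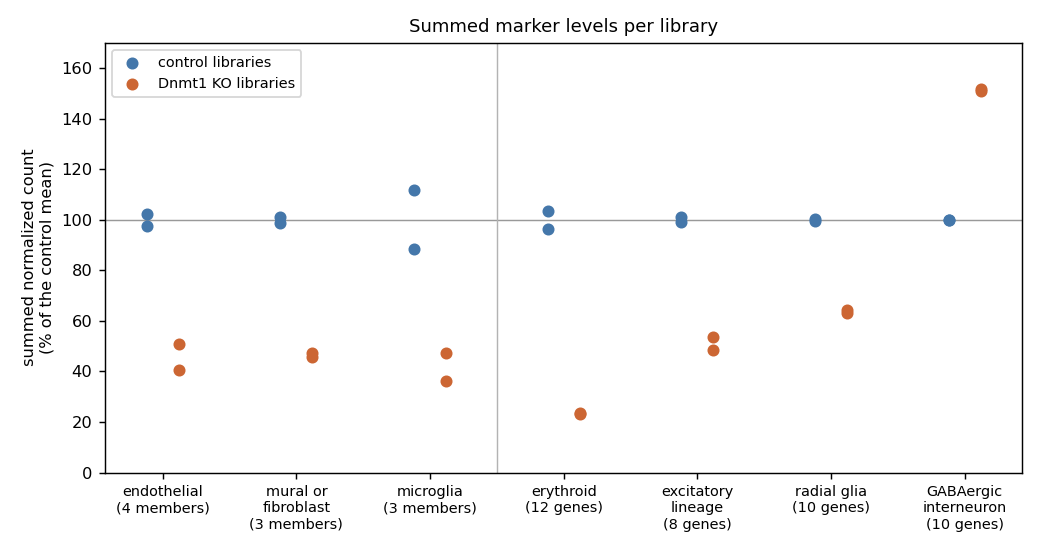
Summed normalized count of each marker list in each library (points) as a percentage of the control mean. In the 3 columns of marker genes to the left the *Dnmt1* KO libraries lie at 36.4% to 50.8%, the erythroid list at 23.3% and 23.6%, the excitatory lineage at 53.7% and 48.5%, radial glia at 63.0% and 64.5% and the interneuron list at 151% and 152%.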

How the data were processed

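RNA sequencing of sorted cells was deposited as 1 table with 4 columns, 1 per library, and all were used. The authors used Trim Galore for trimming, STAR with the GRCm39 genome for alignment and Salmon for gene counts, which they scaled with DESeq2. The deposited signal is a normalized count, that is, reads divided by the library's size factor. Dividing by each library's smallest step gave whole reads for 100% of the 89965 non-zero values (tolerance 0.0001 read). The groups and replicate numbers are those of the labels.

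Genes whose normalized count averaged 10 or more were tested with limma 3.58.1 in R 4.3.3 (lmFit, and eBayes with a variance trend) on log2(normalized count + 1) with genotype as the only term, since these are not raw counts. A score over the listed genes received no p, and an exact permutation test of 2 against 2 libraries cannot go below 0.333. The alternatives were pseudocounts of 0.5 and 10, filters at 1 and 50 and none, TMM factors, quantile normalization, no variance trend, edgeR 4.0.16, DESeq2 1.42.0 and limma-voom on the whole reads, a spline (5 degrees of freedom) over length and GC content taken off each library, a replicate block, and the omission of single libraries. With 1 library left out, the lone library is assumed to vary like the others. The fit was tested on simulated data first.

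Positions, lengths and overlaps came from GENCODE for GRCm39 and promoter windows from RefSeq. The marker genes and gene lists were chosen with earlier results of these data known. The genes named are the 10 marker genes, the tested ligands and coreceptors, up to 4 called genes with the largest absolute log2 fold change in every other list (or, with none called, the 2 with the highest mean), and *Dnmt1*, *Sst*, *Lhx6* and *Gad1*. Others were chosen after their values were seen, or mark a cell type by definition.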

Additional observations from a re-analysis of the deposited data

How the results depend on the processing

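All 10 marker genes kept a negative log2 fold change under each of the 17 alternatives that gave them a value. DESeq2 gave adjusted p as NA for *C1qb* and *Cx3cr1*, and the limit at 50 left 4 of the 10 to test. Without the variance trend limma called 0 genes of any kind, with a smallest adjusted p of 0.0592, against 3339 genes and 9 of the 10 marker genes at an unadjusted p below 0.05. The log2 fold changes then were -1.03 for *Cldn5*, -1.27 for *Pecam1*, -1.03 for *Kdr*, -1.25 for *Flt1*, -1.25 for *Pdgfrb*, -1.03 for *Col1a1*, -0.98 for *Col3a1* and -1.42 for *Csf1r*. The cause was not tested.

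With DESeq2, 640 genes were called higher (1189 with limma) and 687 lower (1287), and with single libraries left out 787 to 959 and 738 to 1246. Marker genes called lower (8) numbered 5 with DESeq2, 4 at a limit of 50 and 4 to 8 with single libraries left out. Of the further endothelial genes (12), 5 were called with DESeq2, 4 at a limit of 50 and 3 to 10 with libraries left out, and of the mural genes (3), 1 to 3 with libraries left out. Of the fibroblast genes (2), 0 were called with DESeq2, 1 with no filter and 0 to 2 with libraries left out, and of the macrophage genes (4), 1 with DESeq2, 7 with edgeR, 1 at a limit of 50, 7 with a pseudocount of 10 and 2 to 6 with libraries left out. Of the 91 further genes, 0 to 1 were called higher with libraries left out. Of the ligands and coreceptors, DESeq2 called 0 in either direction, quantile normalization 0 higher, and the fits with libraries left out 0 to 2 lower and 0 to 1 higher.

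Calls lost with DESeq2 had log2 fold changes of -1.07 for *Cldn5*, -1.06 for *Col1a1* and -1.47 for *Csf1r*, and *Col1a1* was lost with no filter at -1.03 (adjusted p = 0.0546). With libraries left out the log2 fold change ran from -1.19 to -0.88 for *Cldn5*, -1.48 to -1.02 for *Flt1*, -1.09 to -0.98 for *Col1a1*, -1.70 to -1.14 for *Csf1r* and -2.02 to -0.42 for *Cx3cr1*. Signs changed, with libraries left out, for *Vegfb* (-0.28 to 0.050), *Pdgfa* (-0.072 to 0.34), *Pdgfra* (-0.96 to 0.014) and *Abcg2* (-0.088 to 0.27), the last also with the length and GC trend removed (-0.12).

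The log2 difference between replicates 1 and 2 in control was compared with that in KO libraries over the 14323 genes tested (correlation -0.0847). The labels do not say whether the numbers pair the samples, and a correlation from 1 such difference per genotype cannot decide it. With the replicate number as a block, 1555 genes were called lower and 1402 higher, 8 marker genes lower, 4 fibroblast genes, 7 macrophage genes and 2 ligands or coreceptors lower, and 1 of the 91 further genes higher.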

Other observations

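Of the 91 further genes, 5 had higher counts in both *Dnmt1* KO libraries than in both control libraries, namely *Ets1*, *Ogn*, *Cyp1b1*, *Tmem119* and *Cd68*, and all but *Ets1* were below the filter. *Cd68*, a lysosomal protein of macrophages, was counted at 2.68 and 4.08 in control and at 9.86 and 5.46 in KO libraries. *Cyp1b1*, a cytochrome P450 of perivascular and meningeal cells, was counted at 2.68 and 3.06 in control and at 3.95 and 4.37 in KO libraries. *Tmem119* and *Ogn* had at most 2.19 normalized counts in any library.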
